A study of Mus musculus with 34 samples.

Results

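The injured spinal cord of wild-type mice was compared between 3 days and 1 day after spinal cord injury (SCI), by whole-genome expression arrays. All 4 arrays labelled wild type at 3 days were set against all 5 labelled wild type at 1 day, which are 9 of the series' 34 arrays. For each of the 18193 genes with a named probe set, the probe set with the highest mean over the 34 arrays stood for the gene, and 11993 genes above a log2 value of 4 on at least 4 arrays were tested; the other 6200 were too dim. Because 1 of the 4 day 3 arrays, replicate 2, stood apart from the other 3, day 3 was compared with day 1 with it and again without it. Comparisons of day 3 with sham cord and with day 7 are given only with it.

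The series used wild-type (WT) mice and knockout (KO) mice lacking trkB.T1, the truncated form of the neurotrophin receptor encoded by Ntrk2, in 8 groups of 4 or 5 arrays. The WT arrays come from cord that was exposed but not damaged (sham, 4 arrays) and from injured cord at day 1 (5), day 3 (4) and day 7 (4); KO day 1 (4 arrays) and KO day 3 (5) serve here as a second pair of groups that shares no array with the WT pair. The labels give no strain, sex, age, injury level or injury method, and do not say whether each array is a separate animal, so p-values measure the spread between these samples, which may be partly technical. The labels name no agent given to any group.

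After a spinal cord injury, blood cells enter the damaged tissue, resident glia respond within hours, and damaged neurons and oligodendrocytes are lost. Early genes of this response encode transcription factors, cytokines and chemokines, the secreted signals that draw white blood cells in. In the days that follow, microglia, astrocytes, precursor cells and vessel cells divide, and phagocytes, which are microglia and blood-derived macrophages, take up debris and myelin lipid and break them down in lysosomes. A dividing cell first copies its DNA (the G1/S and S phases), then separates its chromosomes (the G2/M phases, or mitosis), and each step has its own set of genes.

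Values are log2 units throughout, so a difference of 1 is a doubling of the measured signal. A gene passed, and is said to have risen or fallen, when its p-value from limma, a linear model fitted to all 34 arrays, was under 0.05 after Benjamini-Hochberg adjustment over the 11993 genes. Errors after ± are the standard deviation (SD) of a group's arrays or, where named so, the standard error (SE) of a difference. Where an array of the lower group lay under 4, the level taken as dim, values under 4 were set to 4 and the fold is a lower bound. In tissue, fewer cells of a type and less RNA per cell cannot be told apart.

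From day 1 to day 3, 3915 of 11993 genes passed (32.6%), 1844 of them higher at day 3 (15.4%) and 2071 lower (17.3%). The large changes were mostly rises: 463 genes rose by a log2 difference of at least 1 (3.86%) and 89 fell by as much (0.742%). These counts use the values as deposited. Dim genes among them may fall short of 2-fold once values under 4 are set to 4. The median difference over all genes tested was -0.03. Without day 3 replicate 2, 3944 genes passed (32.9%), 2046 of them higher (17.1%) and 1898 lower (15.8%); 3025 passed both ways in the same direction, 890 passed only with it, 919 only without it, and 0 in opposite directions. In 1308 genes every day 3 array lay above every day 1 array (10.9% of genes tested), and in 1390 every day 3 array lay below (11.6%).

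Day 3 replicate 2 had a mean correlation of 0.9615 with the other arrays of its group, against 0.9788 to 0.9828 for the others. It was far from the other day 3 arrays on the second principal component of the 9 arrays (54.6 against -19.1 to -8.9), an axis that carried 24.9% of the variance; the first, with 48.4%, separated the 2 days. The 9 arrays also held different amounts of skeletal muscle RNA: the mean over 16 muscle genes was 4.90, 7.83, 3.88, 3.78 and 4.51 on the day 1 arrays and 7.83, 6.33, 6.78 and 8.72 on the day 3 arrays, so that day 1 replicate 2 lay in the day 3 range and the other day 1 arrays below it; the sham arrays ran from 3.90 to 8.84. The part of muscle RNA in the other results was not tested. As a check of the genotype labels, the Ntrk2 probe set with the largest loss in KO read 10.01 to 10.82 on the 9 WT arrays and 3.12 to 4.94 on the 9 KO arrays of days 1 and 3; replicate 2 of the KO sham group, by its label, stood at 9.46 there and enters here only through the shared estimate of the spread. Markers of cord tissue were high at both days, with the myelin gene Mbp at 15.64 ± 0.05 (SD, n = 5) at day 1 and 15.63 ± 0.03 (SD, n = 4) at day 3.

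**Figure D1:**
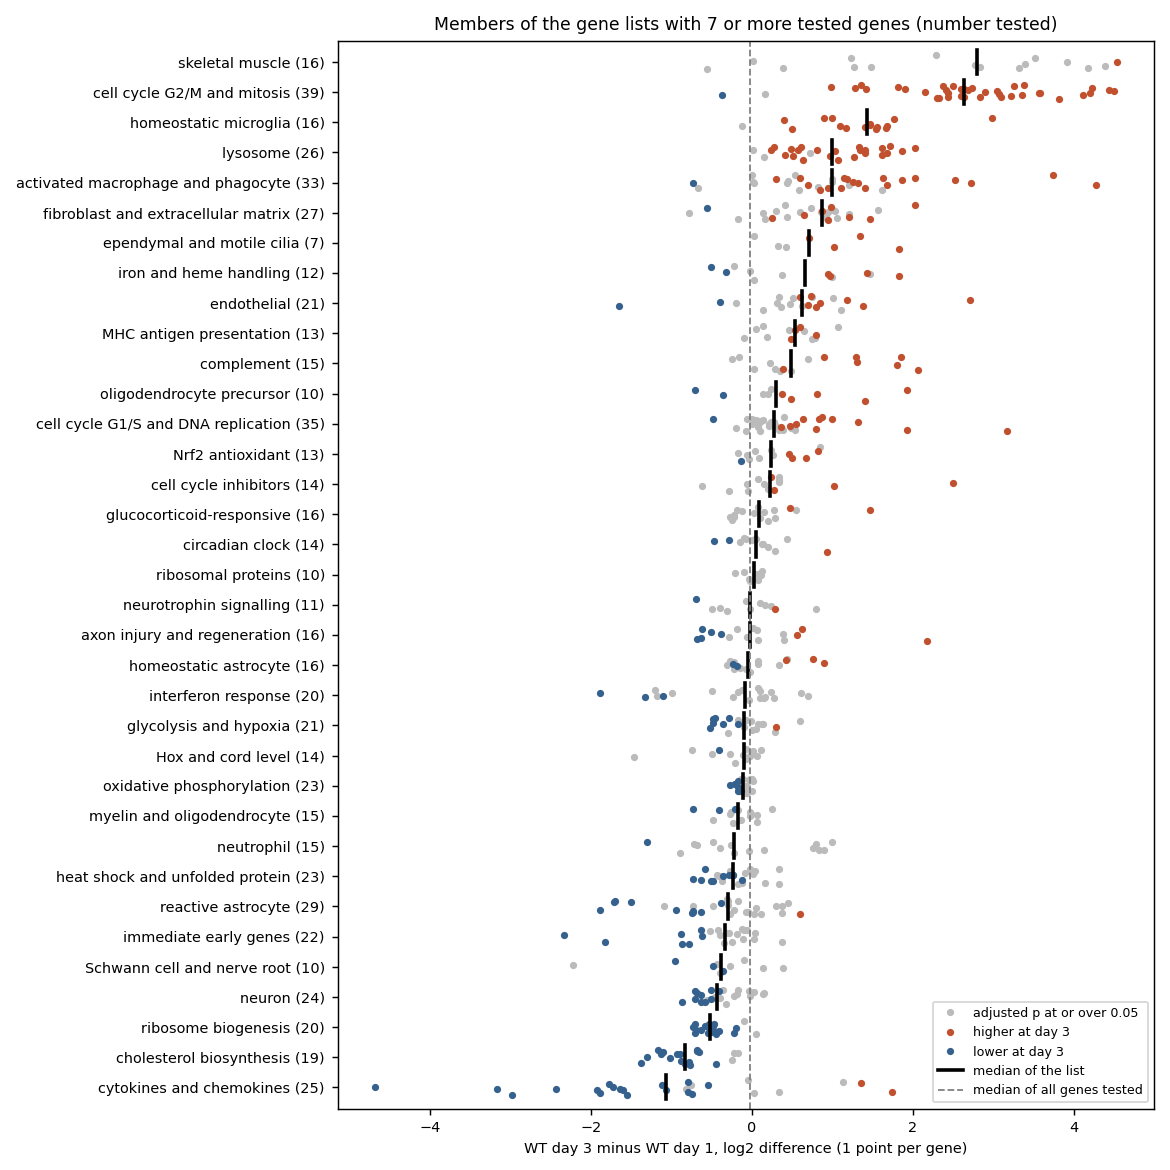
Differences between WT day 3 and WT day 1 (x axis, log2) for each tested gene of the lists with 7 or more tested genes (y axis, number tested in brackets); orange points passed as higher, blue as lower, grey did not pass, black bars are list medians and the dashed line is the median of all genes (-0.03). Mitosis genes (median 2.64) lie at the right and cytokines and chemokines (median -1.07) at the left; the muscle list (median 2.80) is wide, and 1 of its 16 genes passed.

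Mitosis genes rose nearly as a whole. Of 39 tested genes of G2/M and mitosis, 37 rose and 1 fell, with a median of 2.64, and all 37 rises had no overlap between the days. The same counts, 37 and 1, held without day 3 replicate 2 (median 2.90). The list's mean was 4.63 to 5.17 on the day 1 arrays, 6.97 on day 3 replicate 2 and 7.58 to 7.81 on the other day 3 arrays. Among the 15 largest rises without overlap between the days, all but Cd5l and Gpnmb are genes known for cell division, from Ckap2 (4.60 ± 0.32, SE) and Aspm (4.48 ± 0.26, SE), which act at the spindle, to Cdc20 (3.35 ± 0.19, SE), an activator of the complex that ends mitosis.

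Promoters are shown for the 3 mitosis genes with the largest rise whose window holds a cell cycle element, because the same pair of short sequences stands in each. The windows are the RefSeq sequence of GRCm38.p6 over 300 bases around the annotated start, most of them before it, 5′ to 3′ on the gene's strand: Ccnb2 at chr9:70421505-70421804 (minus strand), Cenpf at chr1:189688037-189688336 (minus strand) and Cenpa at chr5:30666636-30666935 (plus strand). Capitals mark TTTGAA, the core of the cell cycle genes homology region (CHR), and the CCAAT box, or their reverse complements (ATTGG is the CCAAT box on the other strand).
Ccnb2: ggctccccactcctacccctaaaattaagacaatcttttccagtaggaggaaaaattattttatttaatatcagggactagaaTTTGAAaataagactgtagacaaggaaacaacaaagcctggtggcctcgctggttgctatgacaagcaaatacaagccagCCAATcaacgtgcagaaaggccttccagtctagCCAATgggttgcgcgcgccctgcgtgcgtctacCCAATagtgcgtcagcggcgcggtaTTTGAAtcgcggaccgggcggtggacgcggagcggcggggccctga
Cenpf: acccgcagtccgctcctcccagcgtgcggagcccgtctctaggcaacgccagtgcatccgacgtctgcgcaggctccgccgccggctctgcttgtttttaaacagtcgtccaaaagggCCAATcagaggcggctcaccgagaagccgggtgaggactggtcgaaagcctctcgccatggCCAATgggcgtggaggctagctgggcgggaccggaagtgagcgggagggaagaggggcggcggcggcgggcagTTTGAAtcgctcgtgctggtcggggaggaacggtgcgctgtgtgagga
Cenpa: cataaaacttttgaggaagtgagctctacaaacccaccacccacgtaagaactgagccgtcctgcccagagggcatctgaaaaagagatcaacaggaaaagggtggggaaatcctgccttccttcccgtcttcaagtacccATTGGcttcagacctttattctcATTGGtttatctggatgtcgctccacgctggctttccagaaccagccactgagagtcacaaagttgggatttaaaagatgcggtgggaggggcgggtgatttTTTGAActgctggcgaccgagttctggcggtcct
A window of each of 33 of the 39 mitosis genes was in the table. TTTGAA, searched on both strands, was present for 24 of the 33 (72.7%), against 20.2% of all 27025 genes with a window. CCAAT, also on both strands, was present for 25 of 33 (75.8%), against 41.1% of all genes, and both together for 21 of 33 (63.6%), against 8.0%. Neither motif contains the other. A match is a description of the letters in the window, and no binding was measured here.

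Ccnb2, which encodes cyclin B2, a partner of the mitotic kinase CDK1, read 3.22, 3.52, 3.52, 4.19 and 4.48 on the day 1 arrays and 8.45, 7.91, 8.47 and 8.32 on the day 3 arrays. All day 3 arrays lay far above all day 1 arrays, replicate 2 being the lowest of the 4. The difference was 4.50 ± 0.22 (SE), at least 17.8-fold (limma, adjusted p = 1.63e-14). Ccnb2 read 3.03 to 3.53 on the sham arrays, so that day 1 lay only 0.52 ± 0.22 (SE) above sham, and 6.27 ± 0.37 (SD, n = 4) at day 7.

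Cenpa and Cenpf encode parts of the centromere and the kinetochore, where spindle fibres attach. Cenpa read 4.46, 4.30, 3.52, 4.64 and 4.91 at day 1 and 8.65, 8.49, 8.77 and 8.48 at day 3, a difference of 4.23 ± 0.21 (SE) with replicate 2 among the others. Cenpf read 3.17, 2.95, 2.95, 4.07 and 2.95 at day 1 and 7.99, 7.09, 7.73 and 7.81 at day 3, a difference of 4.44 ± 0.27 (SE). Cenpa was at least 17.6-fold and Cenpf at least 12.5-fold higher. Kif20a and Cenpe, motor proteins of the mitotic spindle, rose by 4.20 ± 0.22 and 3.22 ± 0.17 (SE).

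Cdk1, the kinase that starts mitosis, had already moved by day 1. It read 3.54 to 4.07 on the sham arrays, then 6.55, 6.07, 6.14, 6.77 and 6.0 at day 1 and 9.14, 8.30, 8.91 and 8.88 at day 3. Its arrays did not overlap, and the rise from day 1 was 5.66-fold (2.50 ± 0.20, SE; limma, adjusted p = 1.8e-10). Top2a, which untangles replicated DNA, read 7.35, 6.99, 6.67, 7.76 and 6.91 at day 1 and 10.02, 8.70, 9.88 and 9.70 at day 3 (2.44 ± 0.27, SE). Ccna2, the cyclin of S phase and early mitosis, rose by 2.63 ± 0.23, Cep55, which acts when daughter cells part, by 2.71 ± 0.23 and Cdca5, which holds sister chromatids together, by 2.16 ± 0.22 (SE).

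Counts against sham and day 7 place the 2 days in the course of the response; these comparisons share the day 1 or day 3 arrays, so they are given side by side. At day 1, 21 of the 39 mitosis genes stood above sham and 1 below (median 0.52), where 27.1% of all genes were higher and 32.5% lower. At day 3, 38 stood above sham and 1 below (median 3.75), where 29.5% of all genes were higher and 37.4% lower. From day 3 to day 7, 39 of 39 fell (median -1.64), where 1442 genes fell (12% of all, 23.1% having passed in either direction). The mitosis gene that fell from day 1 to day 3 was Anln (-0.37 ± 0.10, SE), whose product anillin shapes the dividing cell's furrow and is also found in myelin; Bub3, a checkpoint gene, did not pass (0.16 ± 0.07, SE).

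DNA replication genes had mostly risen by day 1. Of 35 tested genes of G1/S and replication, 11 rose (31.4%, against 15.4% of all genes), with a median of 0.27. The cyclin gene Ccnd2 was the 1 that fell. Without day 3 replicate 2, 12 rose and 0 fell. Against sham, 29 of the 35 were already higher at day 1 (median 1.17) and 31 at day 3 (median 1.58). Rrm2, the regulated subunit of the enzyme that makes DNA building blocks, read 8.77, 8.66, 8.62, 9.38 and 8.90 at day 1 and 11.10, 10.37, 10.90 and 10.74 at day 3. It rose 3.77-fold with no overlap (1.92 ± 0.27, SE), after a sham range of 5.80 to 7.17. Tk1, thymidine kinase, was at 2.61 to 3.44 at day 1 and 5.82 to 6.29 at day 3, at least 4.02-fold higher, and Gins2, part of the replicative helicase, rose by 1.32 ± 0.23 (SE). The 2 subunits of the nucleotide enzyme differed in size of change, Rrm1 rising by 0.79 ± 0.10 (SE). Ccnd1, the cyclin that opens G1, stood at 11.55 ± 0.27 (SD, n = 5) at day 1 and 11.35 ± 0.27 (SD, n = 4) at day 3, against 9.32 to 9.62 on the sham arrays; its day 3 difference of -0.20 ± 0.13 (SE) did not pass.

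Of 14 tested genes that restrain the cell cycle, 4 rose (28.6%, against 15.4% of all genes) and 0 fell (median 0.22). Without day 3 replicate 2, 4 rose and 2 fell. Cdkn2c, which encodes the inhibitor p18 of the G1 kinases, read 5.67, 4.79, 4.94, 5.92 and 5.16 at day 1 and 8.16, 7.23, 7.80 and 8.01 at day 3. The days did not overlap, and the rise was 5.66-fold (2.50 ± 0.19, SE; limma, adjusted p = 7.26e-11). Rbl1, a relative of the retinoblastoma protein, rose by 1.02 ± 0.22 and Rb1 itself by 0.27 ± 0.06 (SE). Cdkn1b (p27) rose by 0.24 ± 0.08 (SE), a call lost without day 1 replicate 1, day 1 replicate 4 or day 3 replicate 2 (0.19 to 0.26 over the arrays left out).

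**Figure D2:**
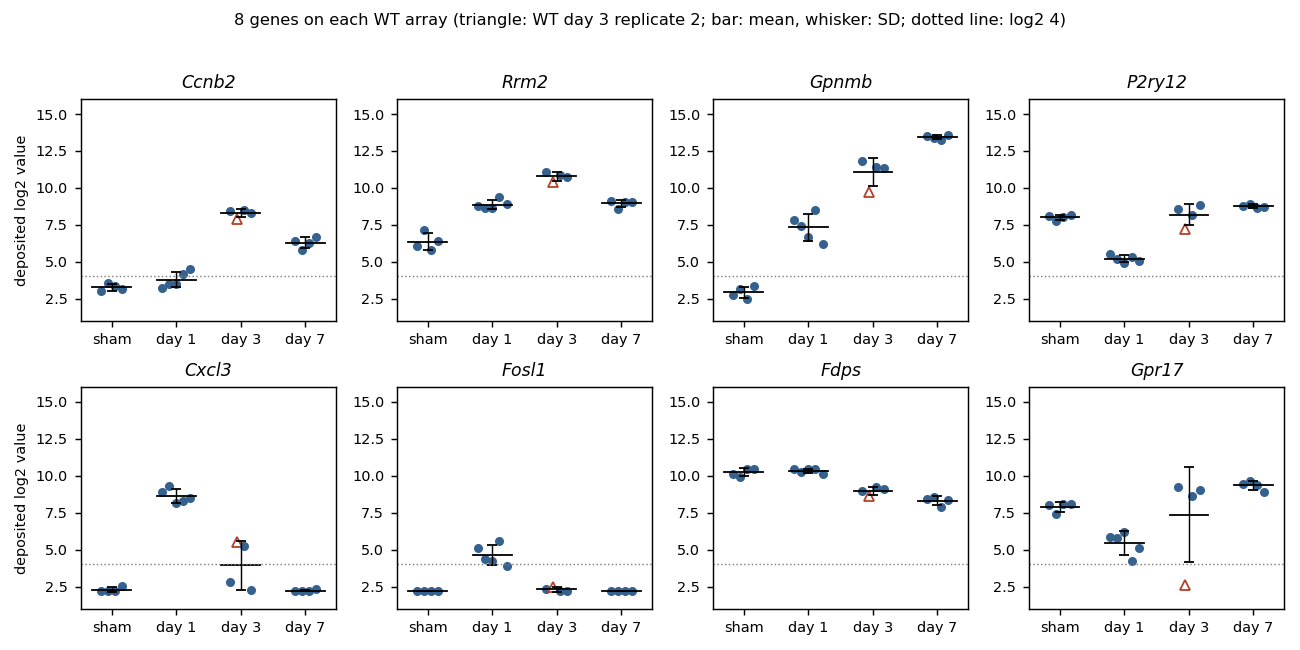
Deposited log2 values (y axis) of 8 genes on each WT array, by group (x axis); the triangle is day 3 replicate 2, horizontal bars are means, whiskers are SD and the dotted line is log2 4. Ccnb2 is near the sham level at day 1 and high at day 3, Rrm2 is already up at day 1, P2ry12 dips at day 1, Cxcl3 and Fosl1 peak at day 1, Fdps steps down after day 1, and Gpr17 is at 2.59 on replicate 2 and at 8.66 to 9.21 on the other day 3 arrays.

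Genes that mark microglia in the resting cord rose from day 1 to day 3. Of 16 tested genes, 15 rose and 0 fell (median 1.43), and all 16 rose without day 3 replicate 2 (median 1.72). The list mean was 7.52 to 7.86 at day 1, 8.22 on day 3 replicate 2, 9.10 to 9.30 on the other day 3 arrays and 7.48 to 7.78 on the sham arrays. Against sham, 6 of the 16 were higher and 4 lower at day 1, and 12 were higher and 1 lower at day 3. P2ry12, the purine receptor by which microglial processes sense damage, read 8.09, 7.75, 8.04 and 8.15 on the sham arrays, then 5.52, 5.21, 4.90, 5.34 and 5.05 at day 1 and 8.55, 7.19, 8.15 and 8.85 at day 3. The days did not overlap, and the day 3 arrays fell on both sides of the sham range. It rose 7.90-fold (2.98 ± 0.31, SE; limma, adjusted p = 1.88e-08) and stood at 8.76 ± 0.12 (SD, n = 4) at day 7. Csf1r, the receptor for the growth factors on which these cells depend, rose from 10.73 ± 0.09 (SD, n = 5) to 12.27 ± 0.37 (SD, n = 4), and Tgfbr1 by 1.00 ± 0.09 and Selplg by 1.67 ± 0.19 (SE). Aif1, which encodes IBA1 and marks microglia and macrophages alike, rose by 1.55 ± 0.20 (SE). Sall1, a transcription factor particular to microglia, was the gene that did not pass (-0.12).

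Phagocyte genes rose at day 3 as well. Of 33 tested genes of activated macrophages and phagocytes, 19 rose and 1 fell (median 1.00; 18 and 1 without day 3 replicate 2). Gpnmb, a glycoprotein of lipid-loaded phagocytes, read 7.83, 7.42, 6.66, 8.53 and 6.20 at day 1 and 11.83, 9.69, 11.42 and 11.32 at day 3. It rose 13.3-fold with no overlap (3.74 ± 0.48, SE; limma, adjusted p = 8.42e-07) and was higher still at day 7, at 13.44 ± 0.15 (SD, n = 4), from a sham range of 2.47 to 3.34. Cd5l, a secreted protein of tissue macrophages, was under 4 on all day 1 arrays (2.25 to 3.05) and read 7.87, 4.95, 7.42 and 7.39 at day 3, at least 7.5-fold higher and lowest on replicate 2. Trem2, the lipid-sensing receptor of microglia, read 6.15, 5.80, 5.87, 6.53 and 5.80 at day 1 and 9.03, 7.52, 8.88 and 8.78 at day 3, a rise of 2.52 ± 0.22 (SE). Abca1, which exports cholesterol from cells, rose 3.10-fold (1.63 ± 0.14, SE). Cd14, a receptor for bacterial products, was the member that fell (-0.74). Arg1, an enzyme of one macrophage state, stood at 11.31 ± 0.44 (SD, n = 5) and 11.84 ± 0.76 (SD, n = 4), against 2.36 to 3.01 on the sham arrays, and its difference of 0.53 ± 0.42 (SE) did not pass.

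Lysosomal genes rose nearly as a block: 23 of 26 tested genes rose and 0 fell (median 1.00; 22 and 0 without day 3 replicate 2). Ctsd, a protease of the lysosome, read 11.44, 11.29, 11.23, 11.61 and 10.99 at day 1 and 13.22, 12.51, 13.10 and 13.11 at day 3. The arrays did not overlap, and the rise was 3.19-fold (1.68 ± 0.13, SE; limma, adjusted p = 6.59e-11). Grn, the lysosomal and secreted progranulin, and Laptm5, a lysosomal membrane protein of blood cells and microglia, each rose 3.06-fold, and Man2b1, which trims sugar chains, 2.54-fold. From day 3 to day 7, 21 of the 26 rose again (11.0% of all genes did), a comparison that shares the day 3 arrays.

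The genes of the 3 chains of C1q, the complement protein that tags debris and synapses, rose. C1qc read 9.02, 8.62, 8.57, 8.66 and 8.50 at day 1 and 10.92, 10.59, 10.66 and 10.78 at day 3, a 4.18-fold rise with replicate 2 close to the others (2.06 ± 0.13, SE). C1qa rose by 1.80 ± 0.11 and C1qb by 1.85 ± 0.12 (SE). Itgb2, a subunit of the complement receptor CR3, rose by 1.29 ± 0.18 (SE). In all, 7 of 15 tested complement genes rose (46.7%, against 15.4% of all genes) and 0 fell (median 0.49). Of 13 genes of antigen presentation, 4 rose (30.8%, against 15.4% of all genes) and 0 fell (median 0.54). Without day 3 replicate 2, 8 rose. On that array the list mean was 7.25, against 7.96 to 8.09 on the other day 3 arrays. B2m, the shared light chain of MHC class I, rose by 0.79 ± 0.12, H2-D1 by 0.59 ± 0.14, H2-K1 by 0.54 ± 0.14 and the peptide-loading gene Tapbp by 0.48 ± 0.14 (SE).

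Secreted signals of the first day were falling by day 3. Of 25 tested cytokines and chemokines, 17 fell and 2 rose (median -1.07; 17 and 3 without day 3 replicate 2), while against sham 22 were higher and 0 lower at day 1. Cxcl3, a chemokine that draws neutrophils, read 8.92, 9.33, 8.19, 8.29 and 8.48 at day 1 and 2.83, 5.49, 5.22 and 2.25 at day 3. Every day 3 array lay below every day 1 array, and replicates 2 and 3 lay above replicates 1 and 4, which were near the sham range of 2.22 to 2.53. Its fall of 4.69 ± 0.63 (SE) was at least 15.6-fold (limma, adjusted p = 1.66e-06). Cxcl2, of the same kind, read 7.28, 8.99, 6.54, 6.14 and 6.87 at day 1 and 2.42, 5.97, 5.17 and 2.43 at day 3, again with day 3 replicates 2 and 3 above the other pair; it fell by 3.17 ± 0.71 (SE).

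Il6, a cytokine that drives the acute response, was one of the genes that replicate 2 changed most. It read 6.89, 5.14, 5.81, 6.90 and 6.75 at day 1 and 2.20, 6.28, 2.58 and 2.20 at day 3, so that replicate 2 lay inside the day 1 range and the other 3 near the sham level of 2.17 to 2.20. Its fall was 2.98 ± 0.63 (SE) with replicate 2 and 3.97 ± 0.50 (SE) without it. Ccl4, which draws monocytes and lymphocytes, went the other way, replicate 2 being its lowest day 3 array: 8.60, 7.95, 7.87, 8.55 and 7.87 at day 1 and 6.52, 3.60, 6.39 and 6.41 at day 3 (-2.44 ± 0.41, SE; -1.73 without replicate 2). Lif, a cytokine of the Il6 family, fell by 1.07 ± 0.19, Il1rn, the natural blocker of interleukin-1, by 1.78 ± 0.33 and Ccl5 by 1.73 ± 0.54 (SE). The rises were those of Ccl8 (1.74) and Cxcl16 (1.36), which encode a monocyte chemokine and a scavenger receptor that doubles as a chemokine.

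Interferon-induced genes were elevated on both days. Of 20 tested, 14 stood above sham at day 1 and 13 at day 3, and from day 1 to day 3, 3 fell and 0 rose (median -0.09; 2 and 0 without day 3 replicate 2), where 17.3% of all genes fell. Gbp2, a GTPase induced by interferon, read 10.51, 10.15, 9.33, 10.34 and 10.35 at day 1 and 8.0, 8.88, 8.30 and 7.80 at day 3, a 3.71-fold fall with no overlap (-1.89 ± 0.32, SE). Gbp3 fell by 1.11 ± 0.24 (SE). Oasl2 fell by 1.33 ± 0.50 (SE), a call lost without any one of day 1 replicates 1, 2, 4 and 5 and day 3 replicates 1, 2 and 3 (-1.54 to -1.10). Cxcl10, a chemokine induced by interferon, fell by 1.89 ± 0.43 (SE), with day 3 replicate 2 its lowest day 3 array at 4.49 (-1.53 without it). Cxcl10 stood at 7.42 ± 0.53 (SD, n = 4) at day 7, against 7.47 ± 0.53 (SD, n = 5) at day 1. Lyve1, a hyaluronan receptor of some tissue macrophages and of lymph vessels, read 8.53, 9.36, 8.53, 7.99 and 8.60 at day 1 and 5.84, 7.81, 6.50 and 5.66 at day 3; it fell 4.44-fold with no overlap.

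Neutrophil genes did not separate the days. Of 15 tested, 0 rose and 1 fell (median -0.22, and 0.04 without day 3 replicate 2), and their mean was 6.34 to 8.22 on the day 1 arrays and 6.55 to 7.69 on the day 3 arrays. The gene that fell was Clec4e, a receptor also made by macrophages (-1.30 ± 0.47, SE), with a call that 7 of the 9 single-array omissions ended, those of day 1 replicates 1, 2, 4 and 5 and day 3 replicates 1, 2 and 4 (-1.72 to -1.06). Of 14 lymphocyte genes, 2, Cd22 and Il7r, could be tested and neither passed. Their mean was 3.59 to 4.83 at day 1, 3.70 on day 3 replicate 2 and 4.56 to 5.13 on the other day 3 arrays. The B cell gene Cd22 was dim, reading 2.64 to 2.89 at day 1 and 2.78 to 3.62 at day 3. Of 3 tested red blood cell genes 0 passed, and their mean was 7.18 on day 3 replicate 2 against 5.54 to 6.55 on the other day 3 arrays and 4.88 to 6.97 at day 1.

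Immediate early genes, transcription factors switched on soon after a signal, fell or did not pass. Of 22 tested, 7 fell (31.8%, against 17.3% of all genes) and 0 rose (median -0.34). Without day 3 replicate 2, 11 fell and 1 rose (median -0.54). The list mean was 8.09 on replicate 2, inside the day 1 range of 7.98 to 8.29, and 7.40 to 7.71 on the other day 3 arrays. Fosl1, a partner of the Jun proteins, read 5.09, 4.40, 4.25, 5.61 and 3.89 at day 1 and 2.35, 2.49, 2.20 and 2.18 at day 3, close to the sham range of 2.17 to 2.18. Its fall of 2.34 ± 0.23 (SE) had no overlap (limma, adjusted p = 5.13e-09). Maff, a small Maf factor, read 7.91, 7.42, 7.29, 7.80 and 7.52 at day 1 and 5.14, 6.98, 5.96 and 4.96 at day 3, with replicate 2 nearest to day 1. Fos and Jun fell less, by 0.87 ± 0.17 and 0.62 ± 0.11 (SE), and stayed above sham at 10.96 ± 0.25 and 10.28 ± 0.21 (SD, n = 4). The CArG box, the site of serum response factor, stood in the windows of 2 of 16 members (12.5%), against 1.8% of all genes. This share covers members with a window whether or not they fell, and no binding was measured.

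Ribosome assembly genes fell by a small amount that was very even between arrays. Of 20 tested genes of ribosome biogenesis, 18 fell and 0 rose both with day 3 replicate 2 (median -0.52) and without it (median -0.58), and 17 had been above sham at day 1. Nop56, part of the particle that modifies ribosomal RNA, read 10.57, 10.52, 10.44, 10.56 and 10.50 at day 1 and 9.90, 9.84, 9.86 and 9.94 at day 3. The gap between the days was much wider than the spread within either, although the fall was 1.55-fold (-0.63 ± 0.05, SE; limma, adjusted p = 3.07e-10). Its partner Nop58 fell by 0.70 ± 0.09, Dkc1 by 0.45 ± 0.07 and Utp4 by 0.53 ± 0.08 (SE). Genes of the ribosome's own proteins did not follow: 0 of 10 tested passed in either direction (median 0.02), Rps24 coming nearest at 0.12 ± 0.05 (SE).

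Chaperone genes fell modestly. Of 23 tested genes of heat shock and protein folding, 10 fell (43.5%, against 17.3% of all genes) and 0 rose (median -0.24). Without day 3 replicate 2, 9 fell and 0 rose. The promoters of the 3 falling members with the largest falls that hold the heat shock element GAANNTTC (N is any base; both strands searched) are shown because this is the sequence that heat shock factor is known to read; capitals mark each match. They are RefSeq windows of GRCm38.p6: Hspb1 at chr5:135887669-135887968 (plus strand), Hsph1 at chr5:149636287-149636586 (minus strand, 1 of its 2 annotated windows) and Hspd1 at chr1:55087883-55088182 (minus strand, also 1 of 2).
Hspb1: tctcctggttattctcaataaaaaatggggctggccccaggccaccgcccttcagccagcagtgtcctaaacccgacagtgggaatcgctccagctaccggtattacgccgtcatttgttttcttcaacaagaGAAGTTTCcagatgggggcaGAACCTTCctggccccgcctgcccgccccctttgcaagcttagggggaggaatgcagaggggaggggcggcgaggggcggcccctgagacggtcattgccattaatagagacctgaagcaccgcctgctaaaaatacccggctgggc
Hsph1: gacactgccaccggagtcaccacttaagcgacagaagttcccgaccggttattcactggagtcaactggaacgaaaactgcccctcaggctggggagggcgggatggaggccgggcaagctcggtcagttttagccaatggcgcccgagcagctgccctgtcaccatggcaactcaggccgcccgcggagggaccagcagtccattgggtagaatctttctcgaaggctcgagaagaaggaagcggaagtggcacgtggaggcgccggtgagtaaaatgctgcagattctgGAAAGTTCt
Hspd1: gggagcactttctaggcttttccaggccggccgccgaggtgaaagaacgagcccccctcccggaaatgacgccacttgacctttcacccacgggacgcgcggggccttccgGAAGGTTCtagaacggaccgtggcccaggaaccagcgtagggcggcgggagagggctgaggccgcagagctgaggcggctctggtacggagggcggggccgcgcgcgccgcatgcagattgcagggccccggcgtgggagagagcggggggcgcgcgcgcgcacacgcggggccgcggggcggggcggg
The element stood in the windows of 8 of 20 members (40.0%), against 9.0% of all genes. This share covers members with a window whether or not they fell, so it says nothing about the fall. No binding was measured. Hspb1, a small chaperone that also marks stressed astrocytes and axons, read 13.78, 13.43, 13.35, 13.62 and 13.69 at day 1 and 12.49, 13.85, 13.03 and 12.37 at day 3. Replicate 2 lay above every day 1 array and the other 3 below. The fall was 0.64 ± 0.22 (SE), or 0.94 ± 0.20 (SE) without replicate 2, and the call was lost without day 1 replicate 1 or 5 or day 3 replicate 1 or 4 (-0.45 at the least). Hspd1, the mitochondrial chaperone HSP60, fell by 0.51 ± 0.07 and its partner Hspe1 by 0.29 ± 0.07 (SE). Hsph1, of the HSP110 family, fell by 0.59 ± 0.13 (SE) and by 0.37 without replicate 2, and Atf4, the factor of the integrated stress response, by 0.49 ± 0.13 (SE).

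Genes of cholesterol synthesis, the pathway that supplies sterol for membranes and myelin, fell. Of 19 tested, 16 fell and 0 rose (median -0.83; 16 and 0 without day 3 replicate 2), and in 15 of the 16 that fell every day 3 array lay below every day 1 array. At day 1 the list mean was 9.82 to 9.97, against 9.84 to 10.12 on the sham arrays, and at day 3 it was 8.90 to 9.25. Fdps, which makes the farnesyl unit, read 10.45, 10.29, 10.45, 10.43 and 10.13 at day 1 and 8.94, 8.61, 9.21 and 9.13 at day 3, a 2.59-fold fall (-1.38 ± 0.13, SE; limma, adjusted p = 4.03e-09). Fdft1, which makes squalene, read 12.74, 12.43, 12.52, 12.57 and 12.53 at day 1 and 11.47, 11.41, 11.72 and 11.56 at day 3. The later steps fell as well, Lss by 1.31 ± 0.13 and Msmo1 by 1.13 ± 0.09 (SE). From day 3 to day 7, 11 of the 19 fell further.

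Reactive astrocyte genes were near their day 1 level or lower. Against sham, 29 of 29 tested genes were higher at day 1 and 28 at day 3 (median 4.0 at both). From day 1 to day 3, 10 fell (34.5%, against 17.3% of all genes) and 1, Vim, rose (median -0.30). Without day 3 replicate 2, 12 fell and 2 rose. The count of falls was 5 without day 1 replicate 1, 6 without day 3 replicate 1 and 5 without day 3 replicate 4. Gfap, the astrocyte filament, read 13.36, 13.15, 12.94, 13.40 and 13.10 at day 1 and 13.51, 12.73, 13.49 and 13.48 at day 3; the difference of 0.11 ± 0.13 (SE) did not pass, and it was 0.30 ± 0.11 (SE) without replicate 2 (limma, adjusted p = 0.0353). Ptx3, a secreted pattern-recognition protein, averaged 10.32 ± 0.27 (SD, n = 5) at day 1 and 8.61 ± 0.31 (SD, n = 4) at day 3, a 3.27-fold fall with no overlap. Tgm1, a cross-linking enzyme, fell by 0.95 ± 0.24 and Stat3, the transcription factor of astrocyte reactivity, by 0.38 ± 0.11 (SE).

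Some genes were low on every day 3 array but replicate 2. Slc10a6, a steroid sulfate carrier, was at 2.17, the lowest value in the table, on day 3 replicates 1, 3 and 4 and at 6.79 on replicate 2, above the day 1 range of 3.61 to 5.61. Its fall of 1.50 ± 0.56 (SE), or 2.66 without replicate 2, lost its call without day 1 replicate 1, 4 or 5 or day 3 replicate 1, 3 or 4 (-1.12 at the least). Sphk1, sphingosine kinase, read 6.74, 6.39, 5.60, 6.64 and 6.54 at day 1 and 3.49, 7.54, 4.69 and 3.02 at day 3. It fell by 1.70 ± 0.51 (SE), and by 2.65 ± 0.34 (SE) without replicate 2; the call was lost without day 3 replicate 1 or 4 (-1.14 at the least). Clca3a1, a chloride channel regulator, did not pass with replicate 2 (-0.36 ± 0.50, SE) and fell by 1.35 without it (limma, adjusted p = 0.000291).

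Counts for genes of resting astrocytes were near those of all genes. Of 16 tested, 3 rose (18.8%, against 15.4% of all genes) and 2 fell (12.5%, against 17.3%; median -0.05), and without day 3 replicate 2, 6 rose and 0 fell; the list mean was 10.87 on replicate 2, 11.62 to 11.73 on the other day 3 arrays and 11.32 to 11.50 at day 1. Gja1, the gap junction protein connexin 43, read 13.08, 13.01, 13.13, 13.02 and 13.12 at day 1 and 14.17, 13.03, 14.03 and 14.10 at day 3. Replicate 2 was level with day 1, and the other 3 were back in the sham range of 13.97 to 14.20; the rise was 0.76 ± 0.15 (SE) with it and 1.03 ± 0.10 (SE) without it. Gjb6, connexin 30, rose by 0.89 ± 0.26 and Aldh1l1 by 0.42 ± 0.12 (SE). S100b fell by 0.19 ± 0.07 (SE), a call lost without day 1 replicate 1 or 2 or day 3 replicate 1, 2 or 4 (-0.26 to -0.15). Hpgd, a prostaglandin-degrading enzyme, read 11.55, 7.89, 11.44 and 11.79 at day 3, against 9.52 to 10.04 at day 1, and passed only without replicate 2 (1.86).

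**Figure D3:**
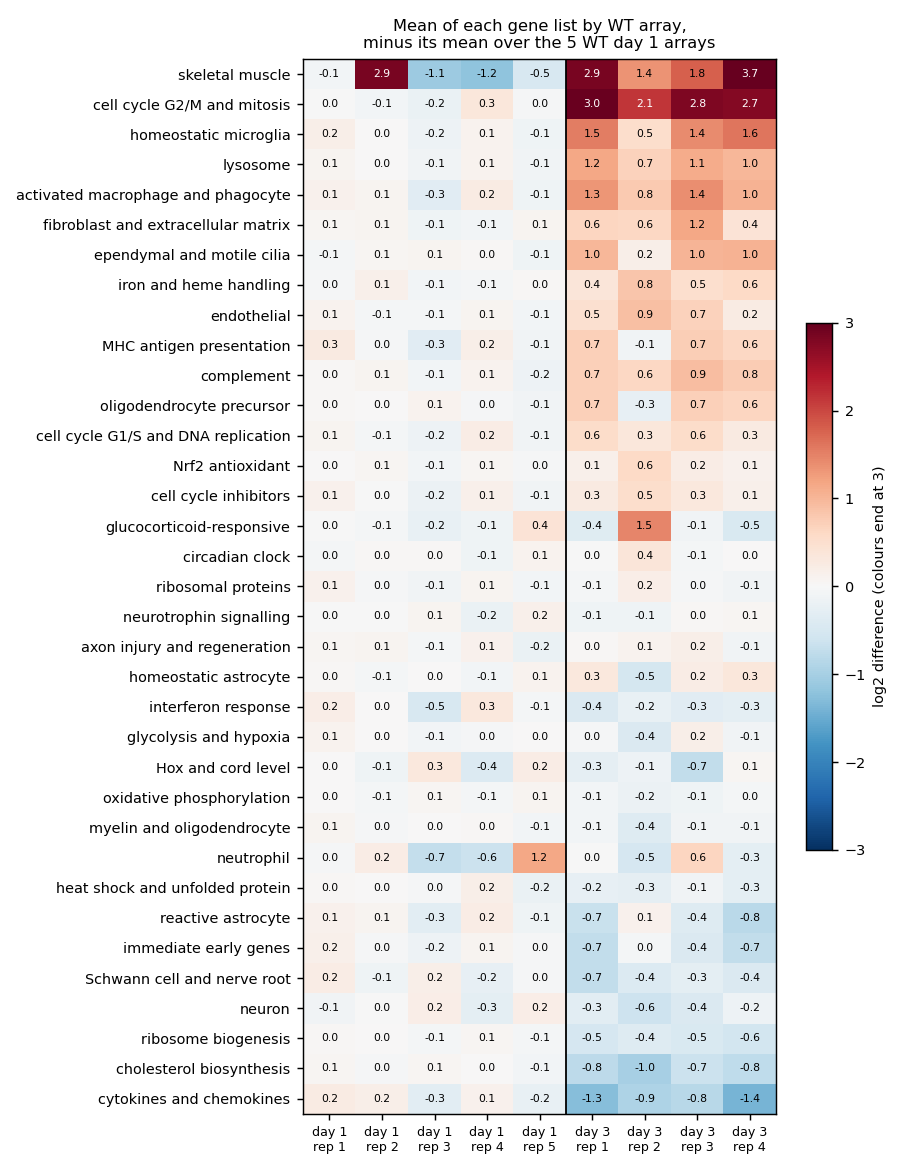
Mean log2 value of each gene list (rows) on each WT day 1 and day 3 array (columns), minus the list's mean over the 5 day 1 arrays; red is above and blue below it, and colours end at 3. Day 3 replicate 2 differs from the other 3 day 3 arrays in the rows for glucocorticoid-responsive genes (11.11 against 9.18 to 9.53 before subtraction), resting astrocytes, microglia and oligodendrocyte precursors.

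Neuronal genes fell or did not pass. Of 24 tested, 10 fell (41.7%, against 17.3% of all genes) and 0 rose (median -0.43). Without day 3 replicate 2, 5 fell (median -0.37), where 15.8% of all genes fell. At day 1, 16 had been below sham, where 32.5% of all genes were. The list mean was 11.16 to 11.67 at day 1, 10.84 on replicate 2 and 11.02 to 11.31 on the other day 3 arrays. The falls included the neurofilament genes, which build the axon's core. Nefh read 13.11, 12.72, 13.33, 13.01 and 13.31 at day 1 and 12.26, 11.75, 12.43 and 12.47 at day 3, a fall of 0.87 ± 0.16 (SE) with no overlap, whereas its sham values of 13.08 to 13.24 lay within the day 1 range. Nefm fell by 0.58 ± 0.15, Nefl by 0.41 ± 0.09 and Tubb3, neuronal tubulin, by 0.51 ± 0.12 (SE). Snap25, of the synaptic release machinery, stood at 14.86 ± 0.12 (SD, n = 5) and 14.53 ± 0.22 (SD, n = 4) and did not pass.

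Genes linked with axon injury went both ways. Of 16, 3 rose (18.8%, against 15.4% of all genes) and 5 fell (31.2%, against 17.3%), with a median of -0.03. Without day 3 replicate 2, 4 rose and 6 fell. The count of falls was 3 without day 1 replicate 1, day 3 replicate 1 or day 3 replicate 4. Sprr1a, a growth-associated protein of injured neurons, read 7.05, 7.24, 7.04, 8.16 and 5.80 at day 1 and 9.08, 9.10, 9.73 and 8.98 at day 3, 4.49-fold higher with no overlap, from a sham range of 2.25 to 2.66. Of 11 tested genes of neurotrophin signalling, 1 rose and 1 fell (9.09% each, against 15.4% and 17.3% of all genes). Without day 3 replicate 2, 2 rose and 1 fell. Adam10, a protease that cuts surface receptors, rose by 0.29 ± 0.08 (SE). Bdnf, the ligand of the receptor that Ntrk2 encodes, fell by 0.70 ± 0.27 (SE), a call lost without any one of day 1 replicates 1, 2, 3 and 5 and day 3 replicates 1, 3 and 4 (-0.92 to -0.49). Ntrk2, by its brightest probe set, averaged 10.14 ± 0.35 (SD, n = 5) at day 1 and 9.73 ± 0.29 (SD, n = 4) at day 3; the ranges overlap, and the difference of -0.40 ± 0.20 (SE) did not pass (limma, adjusted p = 0.12).

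Mature myelin genes moved little. Of 15 tested, 3 fell (20%, against 17.3% of all genes) and 0 rose (median -0.17). Without day 3 replicate 2, 5 fell and 2 rose. That array's list mean of 11.97 lay below the 12.23 to 12.26 of the other day 3 arrays. Ermn, a late oligodendrocyte protein, read 13.22, 13.29, 13.29, 13.40 and 13.10 at day 1 and 12.83, 11.52, 12.96 and 12.79 at day 3; it fell by 0.74 ± 0.18 (SE), or by 0.40 without replicate 2. Mag, an adhesion protein of the inner myelin layer, fell by 0.41 ± 0.11 (SE). Plekhb1 fell by 0.21 ± 0.07 (SE), a call lost without day 1 replicate 1 or 5 or day 3 replicate 2 or 3 (-0.26 to -0.15).

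Oligodendrocyte precursor genes went up in 5 of 10 cases (50%, against 15.4% of all genes) and down in 2 (20%, against 17.3%). The median was 0.30, and 6 rose and 2 fell without day 3 replicate 2. The count of rises was 3 without day 1 replicate 1, day 3 replicate 1, day 3 replicate 3 or day 3 replicate 4, and 2 without day 1 replicate 5. Cspg4, which encodes the proteoglycan NG2 of precursors and pericytes, read 6.48, 6.05, 6.64, 6.25 and 6.17 at day 1 and 7.74, 7.41, 8.08 and 7.69 at day 3, 2.66-fold higher with no overlap (1.41 ± 0.17, SE). Vcan, versican, rose by 0.81 ± 0.12 (SE). Gpr17, a receptor of precursors that begin to mature, was the gene whose difference replicate 2 moved most: 5.89, 5.81, 6.22, 4.23 and 5.11 at day 1 and 9.21, 2.59, 8.66 and 9.04 at day 3. On replicate 2 it was under every day 1 array and on the other 3 above the sham range of 7.41 to 8.11. The difference was 1.93 ± 0.75 (SE; limma, adjusted p = 0.048) with replicate 2 and 3.52 ± 0.30 (SE; adjusted p = 5.15e-10) without it, and the first call was lost when any array but day 1 replicate 3 or day 3 replicate 2 was left out (1.31 at the least). Olig2 and Sox10, factors of the whole lineage, fell by 0.71 ± 0.15 and 0.36 ± 0.10 (SE).

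**Figure D4:**
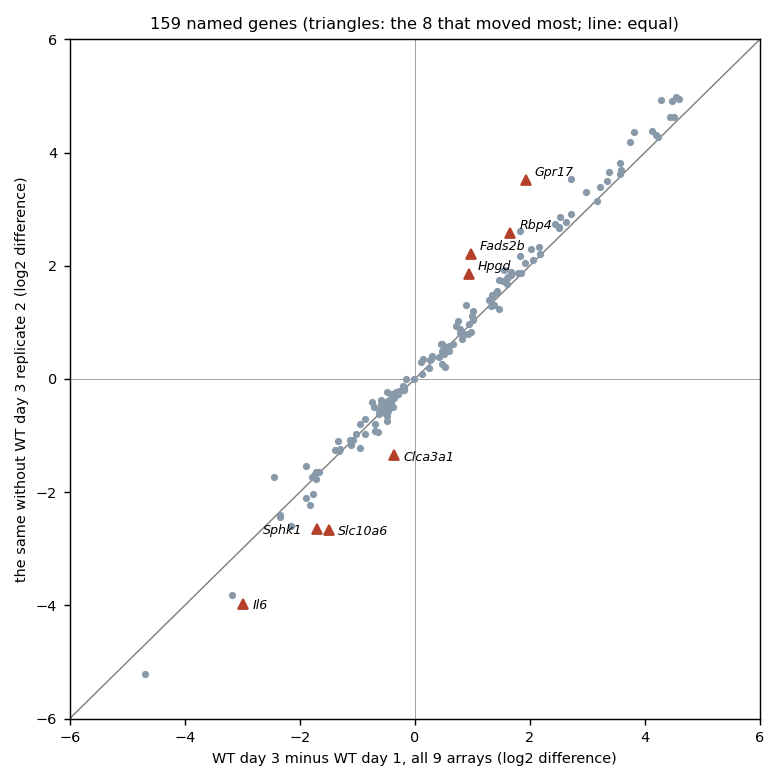
Log2 difference between WT day 3 and WT day 1 for the 159 named genes with all 9 arrays (x axis) and without day 3 replicate 2 (y axis); points on the line are equal, and triangles are the 8 genes that moved most among those that passed either way. Gpr17 goes from 1.93 to 3.52 and Il6 from -2.98 to -3.97.

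Of 21 vessel genes tested, 8 rose (38.1%, against 15.4% of all genes) and 2 fell (9.52%, against 17.3%), with a median of 0.62. Without day 3 replicate 2, 5 rose and 3 fell. The count of rises was 4 without day 1 replicate 3, day 3 replicate 1 or day 3 replicate 3, and 5 without day 1 replicate 5. Aplnr, the apelin receptor of growing vessels, read 9.94, 9.97, 10.43 and 10.38 on the sham arrays, 6.59, 7.04, 6.39, 6.64 and 5.48 at day 1 and 9.79, 6.68, 10.07 and 10.01 at day 3. It had returned to near the sham level on all day 3 arrays but replicate 2, which lay in the day 1 range (2.71 ± 0.49, SE; 3.53 without it). Cldn5, of the tight junctions of the blood-brain barrier, rose 2.60-fold (1.38 ± 0.28, SE), Abcb1a, the barrier's drug efflux pump, by 0.85 ± 0.19 and Mfsd2a, its lipid carrier, by 0.60 ± 0.13 (SE). The genes that fell were Esm1 (-1.66), a product of sprouting vessel tips, and Apln (-0.40), the ligand of Aplnr.

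Of 27 tested fibroblast and matrix genes, 8 rose (29.6%, against 15.4% of all genes) and 1 fell (3.7%, against 17.3%), with a median of 0.87. Without day 3 replicate 2, 6 rose and 1 fell. The count of rises was 5 without day 1 replicate 3, day 1 replicate 5 or day 3 replicate 3. Acta2, the smooth muscle actin of pericytes and myofibroblasts, read 7.63, 8.13, 8.15, 8.90 and 7.77 at day 1 and 10.02, 9.37, 10.89 and 10.31 at day 3, 4.09-fold higher with no overlap (2.03 ± 0.35, SE). Lgals1, galectin-1, rose by 0.95 ± 0.13 and Mmp2, a matrix protease, by 1.46 ± 0.41 (SE). Thy1, also abundant in neurons, was the gene that fell (-0.56 ± 0.13, SE). Among the collagens Col5a2 rose (1.20), while Col1a1 (1.06) and Col3a1 (1.20) did not pass. The muscle list mean stood at 6.33 to 8.72 on the day 3 arrays and 3.78 to 7.83 on the day 1 arrays, and its part in these rises was not tested.

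Ependymal genes are those of the ciliated cells that line the central canal. They rose in 4 of 7 tested cases (57.1%, against 15.4% of all genes) and fell in 0 (median 0.71). Their mean was 5.74 to 6.26 on the sham arrays, 4.69 to 4.90 at day 1, 4.99 on day 3 replicate 2 and 5.81 to 5.85 on the other day 3 arrays. Dynlrb2, of the cilium's motor, read 4.43, 3.99, 4.71, 3.94 and 3.91 at day 1 and 5.94, 5.15, 5.68 and 5.38 at day 3, at least 2.48-fold higher, and remained under its sham range of 6.24 to 6.74. Mia rose by 1.83 ± 0.46 (SE; 2.62 without replicate 2, which read 3.13) and Rarres2, chemerin, by 1.02 ± 0.17 (SE). Ccdc153 was under 4 on all 9 arrays and under every sham array, so its call (0.71) carries no fold; it was also lost without any one day 1 array or without day 3 replicate 3 or 4 (0.56 to 0.94).

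Energy metabolism changed by small amounts. Of 23 tested genes of oxidative phosphorylation, 7 fell (30.4%, against 17.3% of all genes) and 0 rose (median -0.11). The falls numbered 5 without day 3 replicate 2 and 4 without day 3 replicate 3. They were led by Ndufs1 (-0.28 ± 0.08), Ndufb8 (-0.21 ± 0.06) and Ndufa4 (-0.21 ± 0.06, SE), which encode subunits of the respiratory chain. In the glycolysis and hypoxia list 7 of 21 fell (33.3%, against 17.3% of all genes) and 1 rose (4.76%, against 15.4%), with a median of -0.10. Without day 3 replicate 2, 5 fell and 2 rose, and without day 1 replicate 1, 4 fell. Pfkp, which commits sugar to glycolysis, read 11.44, 11.25, 11.47, 11.33 and 11.54 at day 1 and 10.97, 10.75, 10.95 and 10.88 at day 3 (-0.52 ± 0.09, SE), and the neuronal glucose carrier Slc2a3 fell by 0.49 ± 0.10 (SE). Pfkfb3, a switch of the same pathway, fell by 0.48 ± 0.13 (SE), and by 0.23 without replicate 2.

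Genes that handle iron from broken blood cells rose in 4 of 12 cases (33.3%, against 15.4% of all genes). They fell in 2 (16.7%, against 17.3%), with a median of 0.66. Without day 3 replicate 2, 3 rose and 1 fell. Slc40a1, ferroportin, which exports iron, read 6.31, 6.32, 6.68, 6.12 and 6.36 at day 1 and 8.68, 7.15, 8.34 and 8.58 at day 3, 3.55-fold higher with no overlap. Slc11a1, the iron pump of the phagosome, rose by 1.43 ± 0.26 and Blvrb, of heme breakdown, by 0.97 ± 0.16 (SE), while Slc11a2, the importer DMT1, fell by 0.51 ± 0.14 (SE). Of 13 antioxidant genes of the Nrf2 set, 4 rose (30.8%, against 15.4%) and 1 fell (7.69%, against 17.3%), with a median of 0.23. The rises included Gpx1 (0.67 ± 0.10) and Nqo1 (0.82 ± 0.13, SE). Without day 3 replicate 2, 4 rose and 3 fell. Of 5 metallothionein and zinc genes, Slc30a1 rose by 0.30 ± 0.11 and Slc39a14 fell by 0.49 ± 0.15 (SE); the first call was lost in 7 of 9 single-array omissions, all but those of day 1 replicate 3 and day 3 replicate 2, and the second without day 3 replicate 1 or 4 (-0.74 to -0.35). The 1 rise and 1 fall among these 5 genes are 20% each, against 15.4% and 17.3% of all genes. Without day 3 replicate 2, 1 of the 5 rose and 3 fell.

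Genes induced by glucocorticoid hormone were those of the 39 lists in which day 3 replicate 2 stood highest above the other arrays of its group. Their mean was 9.41 to 10.05 at day 1, 11.11 on replicate 2 and 9.18 to 9.53 on the other day 3 arrays. With it 2 of 16 rose (12.5%, against 15.4% of all genes) and 0 fell (median 0.09). Without it 1 rose and 5 fell (median -0.29), where 17.1% of all genes rose and 15.8% fell. Ddit4, a stress-induced brake on mTOR, rose both ways, from 8.75, 8.84, 9.01, 8.45 and 9.93 at day 1 to 10.12, 11.15, 10.47 and 10.11 at day 3 (1.47 ± 0.20, SE; 1.24 without it). Nfkbia rose by 0.47 ± 0.17 (SE) with it and did not pass without it (0.26) or without day 1 replicate 3, day 1 replicate 4 or day 3 replicate 3. In the clock list 1 of 14 rose (7.14%, against 15.4% of all genes), Npas2 (0.93 ± 0.17, SE). The 2 that fell (14.3%, against 17.3%) were Bhlhe40 (-0.47 ± 0.10) and Clock (-0.29 ± 0.07, SE). The list median was 0.05, and the labels give no hour of sampling.

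The remaining lists check what else the tissue held. In the list of Schwann cells and nerve roots 3 of 10 fell (30%, against 17.3% of all genes) and 0 rose (median -0.38). Among them were Prph, a filament of motor and sensory neurons (-0.96 ± 0.24, SE), and Isl1 (-0.48 ± 0.17, SE). The call of Isl1 was lost without day 1 replicate 3, 4 or 5 or day 3 replicate 1 or 4 (-0.56 to -0.38). Of 14 Hox genes, which record the level of the cord, 1 fell (7.14%, against 17.3% of all genes) and 0 rose (median -0.10). The gene that fell was Hoxa9 (-0.41 ± 0.12, SE). Without day 3 replicate 2, 2 fell and 0 rose. In the muscle list 1 of 16 passed, the myosin gene Myh4, which read 4.92, 8.84, 2.64, 2.64 and 4.38 at day 1 and 9.83, 7.91, 8.28 and 10.88 at day 3; its ranges overlap, and the call was lost without any one array but day 1 replicate 2. Of 3 tested Y-linked genes 0 passed, and 1 rose without day 3 replicate 2.

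Outside these lists, the largest falls included Ucn2, a stress peptide of the corticotropin-releasing family, at 5.51, 5.13, 5.12, 4.98 and 4.29 at day 1 and 2.39, 2.90, 3.00 and 2.31 at day 3. The day 3 arrays were close to the sham range of 2.19 to 2.39, and the fall was at least 2.0-fold (-2.35 ± 0.24, SE). Pla2g3, a secreted phospholipase, fell by 1.71 ± 0.18 (SE), at least 2.95-fold. Htr1f, a serotonin receptor, read 5.21, 5.51, 5.24 and 4.53 on the sham arrays, 5.38, 5.96, 5.37, 5.89 and 5.29 at day 1 and 3.71, 3.85, 4.32 and 3.77 at day 3; the day 3 arrays lay below both earlier groups (-1.67 ± 0.22, SE). The predicted gene Gm10791 fell by 1.77 ± 0.19 (SE). Rbp4, a retinol carrier, and Fads2b, a desaturase-like gene, did not pass with all arrays (1.66 ± 0.79 and 0.97 ± 0.60, SE), and passed without day 3 replicate 2 (2.58 and 2.21).

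The same days were compared in KO cord, with 4 day 1 and 5 day 3 arrays, none of them among the 9 WT arrays compared. Both comparisons share 1 estimate of the spread from all 34 arrays, so the calls in the genotypes are not independent. In KO, 6539 genes passed (54.5%), 2818 higher (23.5%) and 3721 lower (31.0%). Of the 1844 genes higher in WT, 1611 were also higher in KO, which is 87.4% of the WT genes and 57.2% of the KO genes. Of the 2071 lower in WT, 1731 were also lower in KO (83.6% and 46.5%), and 2 genes rose in WT and fell in KO while 1 did the reverse. The difference between the genotypes' changes passed for 103 genes (0.859%): in 85 the WT change lay below the KO change (0.709%) and in 18 above it (0.150%). The count depended on single arrays. Without WT day 3 replicate 2 it was 51, without WT day 1 replicate 4 it was 57, and without WT day 3 replicate 1 it was 184. Without KO day 1 replicate 3 or 4 it was 60 or 56. Without KO day 3 replicate 2, 3, 4 or 5 it was 224, 61, 45 or 161.

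Part of the mitosis list rose less in WT than in KO. In 17 of 39 the WT change was below the KO change and in 0 above it (median difference -0.98), the median rise being 2.64 in WT and 4.28 in KO. Cdk1 changed by 2.50 in WT and 4.98 in KO, a difference of -2.48 ± 0.28 (SE), Top2a by 2.44 and 5.73 (-3.29 ± 0.38), Ccna2 by 2.63 and 5.40 (-2.77 ± 0.33), Cdca5 by 2.16 and 4.81 (-2.64 ± 0.30) and Cep55 by 2.71 and 5.45 (-2.74 ± 0.32, SE). Cdk1 was at 3.91 to 4.50 on the KO day 1 arrays, under every WT day 1 array, and at 8.75 to 9.68 on the KO day 3 arrays, against 8.30 to 9.14 in WT. Ccnb2, whose rise was 4.50 in WT and 5.42 in KO, did not pass for the difference. Replication genes followed, with 10 of 35 below and 0 above (median difference -0.69). Glucocorticoid-responsive genes changed by a median of 0.09 in WT, or -0.29 without day 3 replicate 2, and by -0.68 in KO; 1 of 16 passed for the difference.

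**Figure D5:**
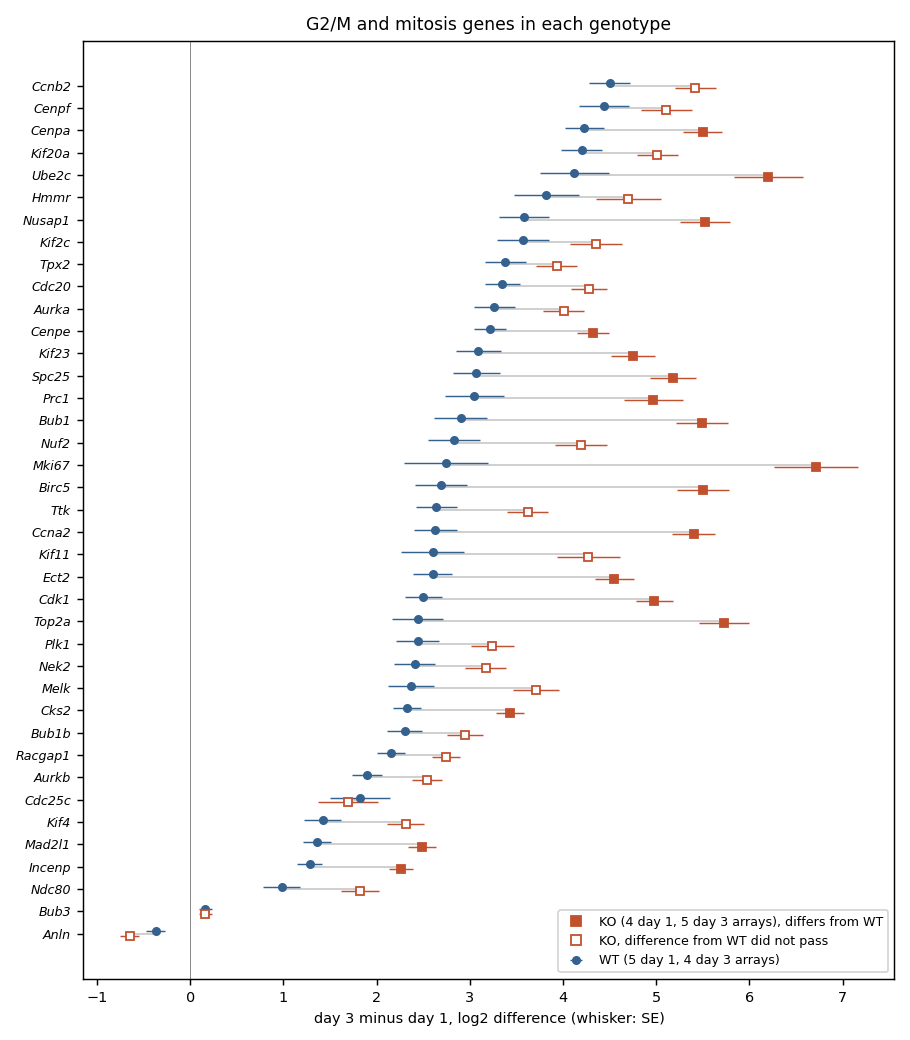
Change from day 1 to day 3 (x axis, log2 difference, whiskers SE) of the 39 tested mitosis genes (y axis) in WT (circles) and KO (squares, filled where the difference between the changes passed). The KO change exceeds the WT change in 17 genes by the test, with Top2a at 5.73 against 2.44.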

How the data were processed

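Per the labels' protocols, biotinylated cRNA was made from 1 ug of spinal cord RNA for Affymetrix arrays. The authors deposited log2 values, for which the submitters' processing notes name GCRMA; version, background model and array date are not given in the sources used here. As usually run, GCRMA quantile-normalises arrays together, which hides a change in total RNA per sample, and dim values are pulled toward a common low level (2.17 is the lowest value). The number of arrays limits the precision.

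Of 45101 probe sets, 34945 had 1 gene symbol, 932 several and 9160 none, apart from 64 controls. Where a gene had several probe sets, the brightest over all arrays was used. limma 3.58.1 in R 4.3.3 fitted 8 group means on all 34 arrays, with Benjamini-Hochberg adjustment over 11993 genes; the code was tested on simulated data. Of 145 passing named genes, 62 had another probe set above the filter, which passed the same way for 54 and the opposite way for 0.

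The comparison, the 39 gene lists and the naming rule were chosen with earlier results of these data known. The rule took the 15 largest rises and 15 largest falls without overlap, from each list the 4 passing members of smallest p (or 1 if none passed), 9 set genes, the 5 smallest p for the genotype difference, the 8 genes most moved by day 3 replicate 2, and the genes whose promoters are printed. List members that went against their list, members named for contrast (such as Bub3 and Sall1) and the genes under the other observations were picked with their values in view. Of 805 list entries, 736 were on the array, 1 of them by an older symbol, and 673 were tested. Promoters are RefSeq sequence. Alternatives covered the arrays in the fit, filter, probe sets, scaling, array weights, variance prior, the replicate number as a block and each array left out.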

Additional observations from a re-analysis of the deposited data

Results flagged for a closer look

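In WT day 1 and WT day 3, the highest and lowest arrays were set against the others of their group by Dixon's test at its 95% critical value, for the list means and for every gene named in the text. Of 456 such sets, 59 had an array apart, and WT day 3 replicate 2 was that array in 48. For a set not chosen by its values chance gives about 1 in 20, but these counts are a description and cannot be read against that share. The sets share arrays, replicate 2 was already known to stand apart, and 8 genes were named because it moved them most, 6 of which are among those below. Its list mean was low at 7.25 for the MHC antigen presentation list, 10.87 for the homeostatic astrocyte list, 11.97 for the myelin and oligodendrocyte list, 8.28 for the oligodendrocyte precursor list and 4.99 for the ependymal and motile cilia list. Single genes with the low value on that array were Abca9 at 5.76, Abcg1 at 8.9, Aif1 at 8.28, Anln at 11.57, Aplnr at 6.68, Aspm at 6.05, B2m at 13.05 and Ccl4 at 3.6 (log2). The low genes also held Cd5l at 4.95, Cdc20 at 9.79, Cep55 at 7.98, Ckap2 at 8.06, Csf1r at 11.72, Ctsd at 12.51, Cxcl10 at 4.49 and Ermn at 11.52 (log2). Low as well were Fads2b at 3.2, Gfap at 12.73, Gja1 at 13.03, Gjb6 at 8.96, Gpr17 at 2.59, Hpgd at 7.89, Hspd1 at 11.58 and Hspe1 at 11.5 (log2). Further low genes were Hsph1 at 10.45, Htr2b at 3.97, Mia at 3.13, Ms4a7 at 6.58, Nefm at 13.67, Olig2 at 7.97, Pfkfb3 at 8.31 and Pltp at 9.07 (log2). The array was low too for Prph at 7.25, Sall1 at 7.52, Selplg at 7.3, Slc30a1 at 8.6 and Trem2 at 7.52 (log2).

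Genes with the high value on it were Clca3a1 at 8.78, Gm10791 at 3.63, Il6 at 6.28, Nqo1 at 6.15, Slc10a6 at 6.79 and Stat3 at 10.89 (log2). WT day 1 replicate 2 stood apart for the skeletal muscle list mean at 7.83. WT day 1 replicate 3 stood apart for Oasl2 at 5.32 and Slc39a14 at 8.27. WT day 1 replicate 4 stood apart for Bdnf at 6.91, Cenpf at 4.07 and Tk1 at 3.44. WT day 1 replicate 5 stood apart for Dus4l at 5.92. WT day 3 replicate 3 stood apart for Ccl5 at 2.79, Il1rn at 2.86 and Sprr1a at 9.73. WT day 3 replicate 4 stood apart for Apoc4 at 6.66.

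The change from day 1 to day 3 differed between the genotypes by limma's test of the difference itself for Cdk1 (-2.48, adjusted p = 6.92e-06), Cdca5 (-2.64, adjusted p = 6.92e-06), Top2a (-3.29, adjusted p = 6.92e-06), Cep55 (-2.74, adjusted p = 6.92e-06) and Ccna2 (-2.77, adjusted p = 7.76e-06), each the WT change minus the KO change on the log2 scale.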

How the results depend on the processing

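The count of genes passing from day 1 to day 3 in WT was 3915 and kept within 1.5 times of that under every alternative run but 1: with only the 9 arrays compared it was 2516, with fewer arrays behind the variance. Elsewhere it ran from 3289 to 5700, the latter with array weights, and from 3316 to 3944 with each array left out. Centring each array on its median moved the share of higher calls from 47.1% to 39.5%. The KO count of 6539 stayed within 1.5 times of its value under all alternatives run, at 5754 to 6699 with an array left out. The genotype difference was less settled: its 103 genes became 25 with only the arrays compared, 61 with no filter, 28 with array weights, and 45 to 224 with each array left out. No sign of a called value turned under the alternatives run. Over the named genes, 2830 values kept their side of the threshold, 146 lost and 21 gained it. Counts within the gene lists stayed within 1.5 times in 1262 cases and moved further in 220.

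The replicate numbers did not pair the arrays: same-numbered WT day 1 and day 3 arrays had correlations of deviations of -0.046, -0.071, -0.082 and -0.278, and none of the 4 day 1 arrays correlated best with its own number. With the replicate block the WT count was 3289, the KO count 6650 and the genotype count 342.

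Dim values limit the folds: a gene with an array under log2 4 has only a lower bound.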

Other observations

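Genes induced by growth factor signalling, most of them its feedback inhibitors, fell from day 1 to day 3. Of 12 tested, a group chosen after their values were seen, 10 fell and 0 rose. Spry2, a Sprouty protein, fell by 1.22 ± 0.08 (SE), Spred3 by 1.36 ± 0.15, Spry4 by 0.96 ± 0.17 and Dusp5, a phosphatase that inactivates ERK, by 1.09 ± 0.26 (SE). Etv4, a transcription factor downstream of the same pathway, fell by 0.99 ± 0.21 (SE). With values under 4 set to 4 its fall was at least 1.58-fold. Dusp6 (-0.13 ± 0.15) and Etv5 (-0.26 ± 0.10, SE) did not pass; without day 3 replicate 2 Etv5 passed (-0.42).

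Genes of lipid transport, also chosen after their values were seen, rose in 6 of 8 tested cases and fell in 0. Apoc2, which activates lipoprotein lipase, rose by 3.27 ± 0.38 (SE), Apoc1 by 2.63 ± 0.59 and Apoe, the main lipid carrier of the nervous system, by 1.11 ± 0.15 (SE). Apoe was already counted in the phagocyte list. Abca9 rose by 2.16 ± 0.26, Pltp by 1.02 ± 0.23 and the cholesterol exporter Abcg1 by 0.54 ± 0.14 (SE). Apoc4 (1.12 ± 0.50) and Apod (-0.03 ± 0.08, SE) did not pass. Apoc4 passed without day 3 replicate 2 (1.50), but that call rests on 1 array. It was at 2.17, the lowest value, on the day 1 arrays and on every day 3 array but replicate 4, which read 6.66. The neighbouring secreted ribonuclease genes Ang and Rnase4 rose by 2.07 ± 0.24 and 2.05 ± 0.19 (SE). Of 6 serotonin receptor genes, 1 rose and 2 fell, where 15.4% of all genes rose and 17.3% fell. Htr2b rose by 2.56 ± 0.28 (SE), from a dim mean of 2.51 at day 1 to 5.06 at day 3. With values under 4 set to 4 its rise was at least 2.1-fold. Htr7 fell by 0.83 ± 0.26 (SE) and did not pass without day 3 replicate 2 (-0.48). Of 6 genes of microglia and macrophages, 5 rose and Lyve1, given above, fell by 2.15. Ms4a7, already counted in the phagocyte list, rose by 2.72 ± 0.38 (SE). The other rises were Havcr2 at 2.53 ± 0.19, Mpeg1 at 2.16 ± 0.22, Lyz2 at 2.10 ± 0.32 and Adgre1 at 2.0 ± 0.26 (SE). Of 5 genes that modify or process transfer and ribosomal RNA, 5 fell, Dus4l by 1.27 ± 0.21, Dhx37 by 1.19 ± 0.20, Trmt61a by 1.14 ± 0.14, Mettl1 by 1.01 ± 0.12 and Rrp12 by 0.98 ± 0.19 (SE). With values under 4 set to 4 the fall of Dhx37 was at least 1.59-fold. All these groups were chosen after their values were seen, and passing is by limma with Benjamini-Hochberg adjustment over all genes tested.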
